A study of Mus musculus with 7 samples.

Results

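The enzymes that turn prohormones into mature hormones, and proteins that act on these enzymes, were measured as a group of 10 genes. The cells were MIN6, an insulin-secreting line derived from mouse pancreatic beta cells. The genes were set by name: the convertases Pcsk1, Pcsk2, Furin, Pcsk4 and Pcsk6, the carboxypeptidases Cpe and Cpd, and the amidating enzyme Pam. Added to them were Scg5, a chaperone of Pcsk2, and Pcsk1n, the source of an inhibitor of Pcsk1. Probes that the array files assign to a transcript of these genes were taken, and all 10 genes had at least 1, with 14 probes of 56605 in all. The compared groups were cells given MPE, a polysaccharide extract of Maidong (the root of Ophiopogon japonicus, used in Chinese medicine), for 3 days, on 4 arrays, and cells given the vehicle, phosphate-buffered saline (PBS), for 3 days, on 3 arrays. All arrays carried Cy3-labelled RNA of the same cell line, grown in DMEM with serum and 2-mercaptoethanol and used at passages 20 to 30. Culture experiments used MPE at up to 50 μg/mL, and which concentration the arrays had is not stated in the labels. Whether the replicates were separate cultures is not stated either, so the spread behind each p-value may be technical.

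Peptide hormones are made as longer precursors that enter the endoplasmic reticulum, fold, pass through the Golgi and are packed into secretory granules. There the convertases Pcsk1 and Pcsk2 cut the precursor behind pairs of basic residues, and Cpe trims the basic residues that the cut leaves at the new ends. Proinsulin becomes insulin and C-peptide in this way, and Pam adds the terminal amide that amylin and several other peptides need. Scg5 is the chaperone that Pcsk2 requires to become active, and Pcsk1n gives rise to an inhibitor of Pcsk1. Furin and Cpd act earlier, in the trans-Golgi network of most cells, Pcsk4 is known from germ cells, and Pcsk6 is a secreted convertase that binds matrix.

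No member differed between MPE and vehicle beyond the spread of the arrays. Limma called 0 of the 13 member probes tested, 0 of them had an unadjusted limma p under 0.05 in either direction, and every one had a limma adjusted p of 0.9999. The MPE level of these probes was 0.912 to 1.10 times the vehicle level, with 5 probes above and 8 below it. That split followed the scaling: 1 was above and 12 below with arrays scaled to their median, and 7 were above and 6 below with quantile normalization or the authors' values. Of all 28943 probes tested 1 was called higher (0.00346%) and 2 were called lower (0.00691%), while 4.16% had an unadjusted p under 0.05, 0.819% higher and 3.34% lower with MPE. The called probes belonged to Olfr867, Wdsub1 and a transcript without a symbol, none of them a member, and they are named here because of their values. Olfr867 was well above background on 4 MPE and 0 vehicle arrays, and Wdsub1 on 0 MPE and 3 vehicle arrays. Both were thus tested only because of the group in which they were high. All levels below are log2 intensities relative to the 75th percentile of the same array, and each member probe had 1 spot per array. A level of 0 is that percentile, and levels of different probes are not compared because probes bind with different strength.

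The arrays lay on 1 slide, the MPE arrays in its second row and the vehicle arrays in its first, so that treatment and slide row cannot be told apart. On the MPE arrays 27944 to 28514 probes were well above background, and on the vehicle arrays 29501 to 30122. The cells carried the markers of beta cells: 9 of 10 listed markers, insulin genes included, were well above background on all 7 arrays, and the glucose transporter Slc2a2 on none. The 9 had log2 differences below 0, with a median of -0.07 and no call. Over all genes 57.7% were below 0, with a median of -0.02. With quantile normalization 1 of the 9 markers was above vehicle and 8 below, with a median of -0.02. The authors' values put 2 above and 7 below, so no direction is read from this split. Of the 8 markers of other islet cells 6 were well above background on all arrays, among them the hormone genes Gcg, Sst and Ppy and the transthyretin gene Ttr. The linear levels of all 8, Ttr included, summed to 303 to 366 on MPE arrays and 336 to 387 on vehicle arrays. Ttr alone made up most of that total, so the total does not stand for the list. Its level was 0.931 times vehicle (0.790 to 1.10), with overlapping groups. None of the 6 exocrine and duct markers was well above background on enough arrays to be tested, and 4 were on no array. Of the 8 stromal, endothelial and immune markers 3 were well above background on all arrays and Col1a1 was on none. The summed level of the 8 was 15.2 to 17.3 on MPE arrays and 18.0 to 22.0 on vehicle arrays. Most of this sum came from 1 gene, the integrin gene Itgam, so it does not stand for the list. On the log2 scale Itgam read 3.97, 3.82, 3.89 and 4.00 on the MPE arrays. It read 4.39, 4.35 and 4.07 on the vehicle arrays, without overlap. Itgam stood at 0.783 times vehicle (0.673 to 0.911, limma adjusted p = 1.0), and its unadjusted limma p was 0.00667. The other tested markers of this list, Cd68 and Col1a2, stood at 1.07 and 0.983 times vehicle, with overlapping groups. Over all genes 4.56% had groups without overlap. The part of Itgam in the values below was not tested. In such bulk RNA, fewer cells of a type and less RNA per cell cannot be told apart.

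Sequence upstream of the members was available for 8 of the 10 genes, in RefSeq windows of the build GRCm38.p6, and the 250 bases before each listed start were searched on both strands. The motif TGACGTCA, the palindromic form of the cAMP response element, was found in the window of Pcsk1 alone among these 8 genes, 78 bases before the start, and in 1.55% of all 32851 windows. Its core TGACG was found in at least 1 window of 4 of the 8 genes and in 17.8% of all windows, with overlapping matches counted. The 8 genes had 10 windows, since Pam and Furin had 2 each, so the count of genes and the share of windows are unlike measures. Of the 2 Furin windows only the first listed held the core. Pcsk1 had 3 matches, of which 2 are the overlapping strands of the palindrome. The stretches around these matches are shown, 5′ to 3′ on the gene's strand, with TGACG or its complement in capitals, because they set Pcsk1 beside the members with a single core.
Pcsk1, chr13:75089768-75089797, plus strand: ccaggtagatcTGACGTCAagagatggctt
Pcsk1, chr13:75089796-75089825, plus strand: tttcgtcgattTGACGtgtaaacactcatt
Pcsk2, chr2:143546088-143546117, plus strand: tggcgggcgcgCGTCAcccgggctggcgct
Scg5, chr2:113829248-113829277, minus strand: aaggaggtaaaTGACGttcataggggtcga
Furin, chr7:80405544-80405573, minus strand: cgagaaagcccCGTCAcgctgggatccagt

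Pcsk2 and Scg5, whose proteins work as a pair, differ in base composition upstream, so both windows are printed whole with the GC box GGGCGG or its complement in capitals.
Pcsk2, chr2:143545883-143546132, plus strand: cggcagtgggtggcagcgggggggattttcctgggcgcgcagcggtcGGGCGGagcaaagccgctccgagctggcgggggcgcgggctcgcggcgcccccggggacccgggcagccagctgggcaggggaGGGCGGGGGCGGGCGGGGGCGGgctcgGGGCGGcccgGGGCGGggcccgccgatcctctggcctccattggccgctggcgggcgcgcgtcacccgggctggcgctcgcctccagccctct
Scg5, chr2:113829092-113829341, minus strand: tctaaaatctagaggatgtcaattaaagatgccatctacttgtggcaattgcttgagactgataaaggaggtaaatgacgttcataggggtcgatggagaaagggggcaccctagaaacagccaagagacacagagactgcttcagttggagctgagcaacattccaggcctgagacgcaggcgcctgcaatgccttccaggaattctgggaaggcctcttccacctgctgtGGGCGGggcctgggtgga
The Pcsk2 window held 82.4% G and C and 7 matches to GGGCGG, overlaps counted, and the Scg5 window held 52.0% G and C and 1 match. The median over all windows was 52.4% G and C, and 32.7% of windows held the box. At least 1 window of 7 of the 8 genes held it, and Pcsk1 was the exception. These matches describe the sequence only.

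Pcsk1, the convertase that cuts proinsulin between the B chain and C-peptide, had nearly the same level on every array. Its log2 level was 5.69, 5.64, 5.55 and 5.49 on MPE arrays 1 to 4, against 5.64, 5.55 and 5.52 on vehicle arrays 1 to 3. The ranges overlapped, with the highest and the lowest array both in the MPE group. The MPE arrays averaged 5.59 ± 0.09 and the vehicle arrays 5.57 ± 0.06 (SD, n = 4 and n = 3). MPE stood at 1.02 times vehicle, with a 95% interval of 0.911 to 1.14 (limma adjusted p = 0.9999).

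Pcsk2, the other convertase of insulin granules, read 9.28, 9.23, 8.98 and 9.21 on the MPE arrays, against 9.40, 9.31 and 9.14 on the vehicle arrays. MPE replicate 3 was the lowest of all arrays and vehicle replicate 1 the highest, while the other MPE arrays lay inside the vehicle range. The MPE arrays averaged 9.18 ± 0.13 and the vehicle arrays 9.28 ± 0.13 (SD, n = 4 and n = 3), and the MPE level was 0.930 times vehicle with an interval of 0.794 to 1.09.

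**Figure D1:**
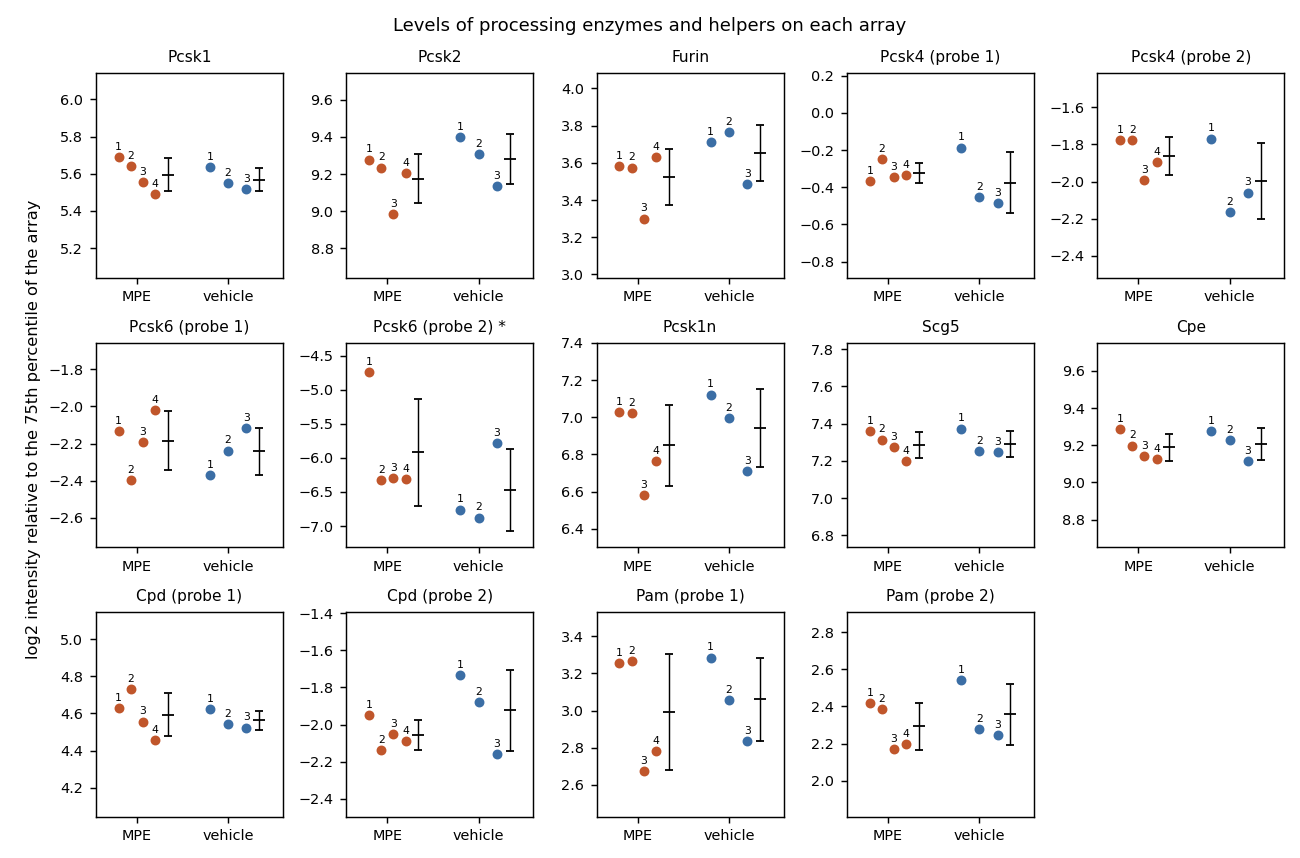
Levels of the 14 member probes, with log2 intensity relative to the 75th percentile of the array on the vertical axis and MPE left of vehicle in each panel. Points are arrays marked with their replicate number, bars are mean ± SD, each panel has its own axis, and the asterisk marks the Pcsk6 probe that was well above background on no array. In every panel the MPE and vehicle points overlap.

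Furin had the lowest MPE-to-vehicle value among the convertases. It read 3.58, 3.57, 3.30 and 3.63 on the MPE arrays, against 3.71, 3.76 and 3.48 on the vehicle arrays. The groups overlapped through vehicle replicate 3, which lay below 3 of the 4 MPE arrays. MPE stood at 0.913 times vehicle (0.766 to 1.09), a log2 difference of -0.13 with an SE of 0.11. The spread within either group, 0.33 over the MPE arrays and 0.28 over the vehicle arrays, exceeded that difference.

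Pcsk4 and Pcsk6, convertases not known as granule enzymes, were measurable by 3 of their 4 probes. The brighter Pcsk4 probe read -0.37, -0.25, -0.34 and -0.34 on the MPE arrays, against -0.19, -0.45 and -0.49 on the vehicle arrays. The vehicle arrays held both extremes, and MPE stood at 1.04 times vehicle (0.901 to 1.19). The second Pcsk4 probe read -1.78, -1.78, -1.99 and -1.90 with MPE and -1.77, -2.17 and -2.06 with vehicle, which put MPE at 1.10 times vehicle (0.920 to 1.31). Vehicle replicate 1 was the highest array for both Pcsk4 probes, so neither probe separated the groups. This second probe had the smallest unadjusted limma p of all member probes, 0.247.

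Pcsk6 was well above background on all 7 arrays by 1 of its 2 probes. That probe read -2.13, -2.40, -2.19 and -2.02 on the MPE arrays, against -2.37, -2.24 and -2.12 on the vehicle arrays, with full overlap. MPE stood at 1.04 times vehicle (0.875 to 1.24). The other Pcsk6 probe was well above background on none of the 7 arrays and was not tested.

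Scg5 and Pcsk1n, whose proteins act on the granule convertases, also overlapped between the groups. Scg5, the chaperone of Pcsk2, read 7.36, 7.31, 7.27 and 7.20 with MPE and 7.37, 7.25 and 7.25 with vehicle. It had the smallest difference and the narrowest interval of the members, at 0.996 times vehicle (0.897 to 1.11). Pcsk1n, the source of the Pcsk1 inhibitor, spread more widely: 7.03, 7.02, 6.58 and 6.76 with MPE, against 7.12, 7.0 and 6.71 with vehicle. Replicates 1 and 2 lay above the other arrays of their own group in both groups, and the MPE mean was 0.936 times the vehicle mean (0.737 to 1.19).

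Among the trimming enzymes, Cpe, the granule carboxypeptidase, read 9.29, 9.20, 9.14 and 9.12 with MPE and 9.28, 9.23 and 9.11 with vehicle. The array ranges nearly coincided and MPE stood at 0.987 times vehicle (0.884 to 1.10). Cpd, the Golgi carboxypeptidase, had 2 probes that gave opposite signs. The brighter one read 4.63, 4.73, 4.56 and 4.46 with MPE and 4.62, 4.54 and 4.52 with vehicle, at 1.02 times vehicle (0.901 to 1.16). The second read -1.95, -2.14, -2.05 and -2.09 with MPE and -1.73, -1.88 and -2.16 with vehicle, at 0.912 times vehicle (0.765 to 1.09). Both Cpd intervals include no difference, and the probes were not tested against each other.

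Among the tested member probes, the brighter Pam probe had the widest spread between arrays. It read 3.26, 3.27, 2.67 and 2.78 on the MPE arrays, against 3.28, 3.06 and 2.84 on the vehicle arrays. MPE replicates 1 and 2 stood well above MPE replicates 3 and 4, and the range within the MPE group was 0.59, against a log2 difference between the groups of -0.07. The second Pam probe also read higher on MPE replicates 1 and 2 than on 3 and 4, with 2.42, 2.39, 2.17 and 2.20, against 2.54, 2.28 and 2.25 with vehicle. The probes put MPE at 0.956 times vehicle each, with intervals of 0.704 to 1.30 and 0.808 to 1.13.

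For all 13 tested probes the range of arrays within each group was larger than the difference between the groups. The arrays of both groups overlapped for every one of them, while 4.67% of all tested probes had groups that did not overlap, 1.29% with all MPE arrays above and 3.38% with all MPE arrays below vehicle. The 95% intervals of all 13 probes lay within 1.5-fold in both directions. The median log2 difference of the member probes was -0.02, and the median over all probes tested was -0.01. Their median size without regard to sign was 0.06, the same as over all probes.

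**Figure D2:**
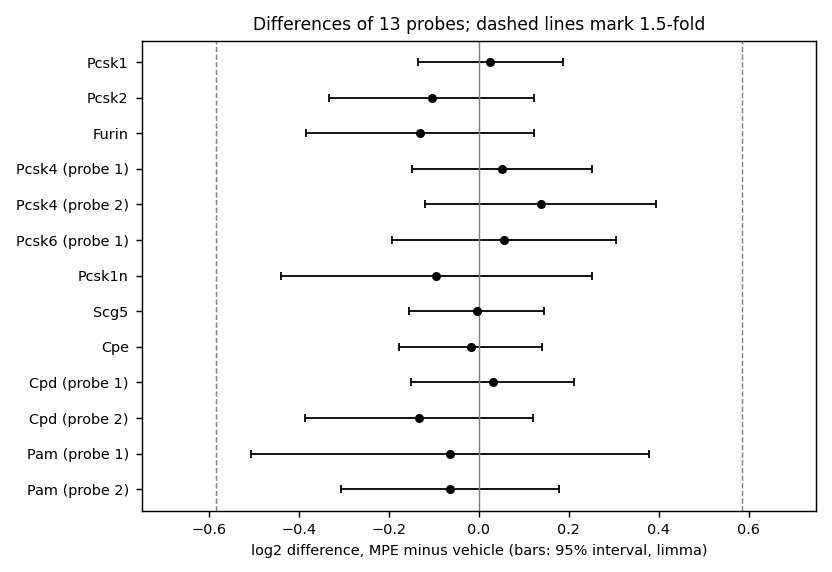
Log2 difference between MPE and vehicle for the 13 tested member probes, positive where MPE was higher. Points are limma estimates, bars are 95% intervals and dashed lines mark 1.5-fold; every interval crosses 0 and ends inside the dashed lines.

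Slide columns 1, 2 and 4 each held 1 MPE and 1 vehicle array, which gave 3 comparisons inside a column. No member probe had the same sign in all 3 columns, where 23.7% of all tested probes did. Furin stood at -0.13, -0.19 and 0.15 on the log2 scale in columns 1, 2 and 4, and Pcsk2 at -0.12, -0.07 and 0.07. For the second Pcsk4 probe the values were -0.01, 0.39 and 0.16, and for Pcsk1 they were 0.05, 0.09 and -0.03. With the column as a block, which leaves the column that held MPE replicate 3 alone out of the comparison, 0 of 13 member probes had an unadjusted limma p under 0.05, against 5.42% of all probes. Their smallest limma adjusted p was then 0.9985, for the second Pcsk4 probe with a log2 difference of 0.18. The brighter Pam probe turned to 0.04 under this block.

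**Figure D3:**
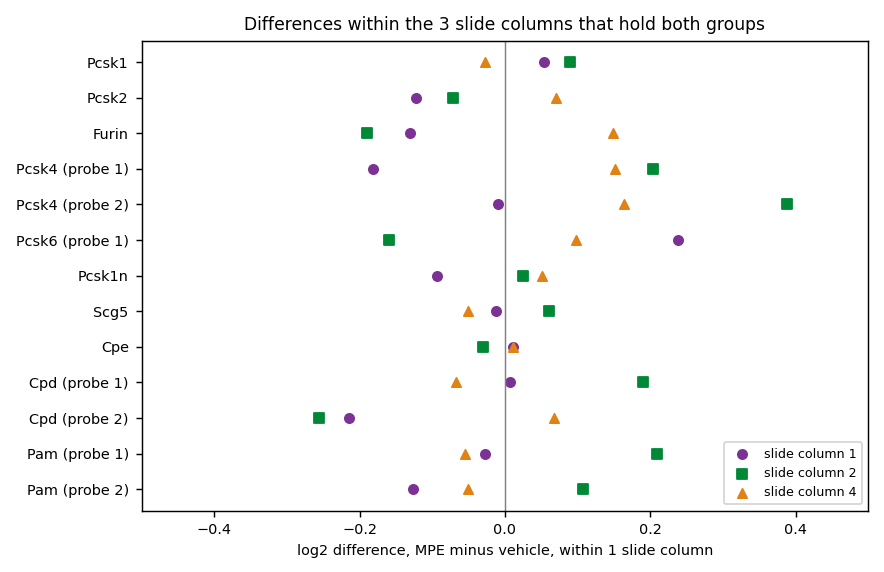
Log2 difference between the MPE and the vehicle array of the same slide column, for each tested member probe. Circles, squares and triangles are columns 1, 2 and 4, with 1 array per group in each; no probe has all 3 symbols on the same side of 0.

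Ratios between members on the same array do not depend on the factor by which an array is scaled, and 4 were compared. These set Pcsk1 beside Pcsk1n, the source of its inhibitor, and Pcsk2 beside Scg5, its chaperone. The others set both granule convertases beside each other, and the trimming beside the amidating enzyme. A ratio of probe intensities is not a ratio of molecules, so only its difference between groups can be read. The log2 ratio of Pcsk1 to Pcsk1n was -1.34, -1.38, -1.03 and -1.27 with MPE and -1.48, -1.45 and -1.19 with vehicle. Its mean difference was 0.12 (exact permutation test, two-sided, p = 0.4). For Pcsk2 to Scg5 the values were 1.92, 1.92, 1.71 and 2.01 with MPE, against 2.03, 2.05 and 1.89 with vehicle. That difference was -0.10 (exact p = 0.314).

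Of the 4 ratios in the main values, that of Pcsk1 to Pcsk2 came closest to separating the groups. It was -3.59, -3.60, -3.43 and -3.71 with MPE and -3.76, -3.76 and -3.62 with vehicle, so 3 MPE arrays lay above all vehicle arrays and MPE replicate 4 lay among them. The difference of 0.13 did not pass (exact permutation p = 0.143). With the authors' values it was 0.056, and with normexp background correction 0.022. Cpe to Pam differed by 0.05 (exact p = 0.8), and by 0.16 and 0.14 under these settings. The order of the ratios by size thus depended on the processing. After Benjamini-Hochberg adjustment over the 4 ratios the exact p-values were 0.533 for the first 3 ratios and 0.8 for Cpe to Pam. The smallest p that the 35 splits of 7 arrays allow is 0.0286.

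**Figure D4:**
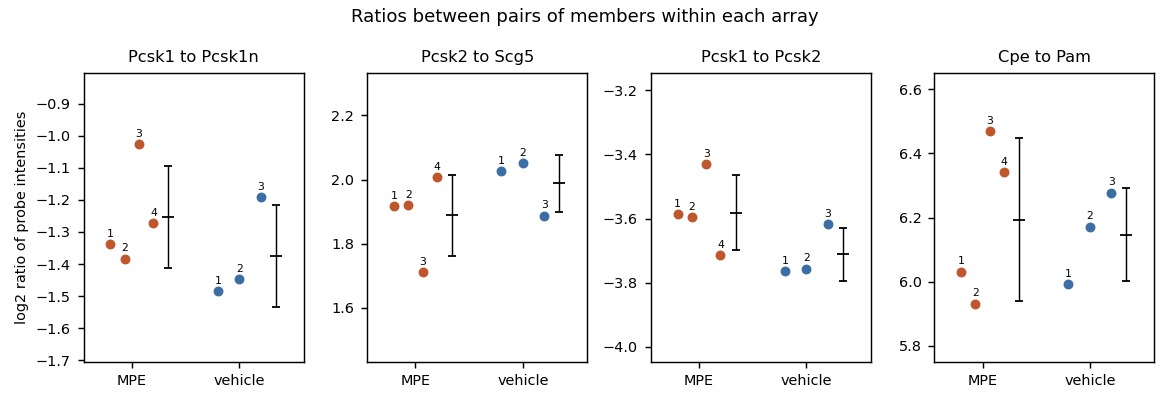
Log2 ratios of probe intensities within an array for 4 pairs of members, MPE left of vehicle. Points are arrays marked with their replicate number and bars are mean ± SD (n = 4 MPE, n = 3 vehicle); the groups overlap in every panel.

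The rest of the processing pathway was described through 72 further genes, of which 68 were bright enough to be tested. Limma called 0 of them, and 0 had an unadjusted limma p under 0.05, where 4.08% of all 22102 genes did. The 68 genes had 23 log2 differences above 0 and 45 below (33.8% and 66.2%), with a median of -0.02, against 42.3% above, 57.7% below and a median of -0.02 over all genes. With arrays scaled to their median 6 were above and 62 below, and with quantile normalization 34 and 34, so no direction is read from the splits of these groups. The groups did not overlap for 3 of them, Pomc, Sec61b and Sorl1, a share of 4.41% beside 4.56% of all genes.

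Of the other convertases, Pcsk7 stood at 0.959 times vehicle (0.864 to 1.06), and Pcsk5 was well above background on no array. Of the 6 other carboxypeptidases related to Cpe, 4 were tested, 1 above and 3 below, with a median of -0.02. Cpz had the largest difference of the 68 genes, -0.38 ± 0.18 (log2 ± SE, limma adjusted p = 1.0), and was well above background on 1 MPE and 3 vehicle arrays. Cpz was thus tested only because of the vehicle arrays, the group in which it was higher. Cpm stood at 0.972 times vehicle. The glutaminyl cyclases, which close the N-terminal glutamine of some peptides, were split, with Qpct at 1.14 times (0.946 to 1.37) and Qpctl at 0.988 times.

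Of the precursors that these enzymes cut, 2 of 17 tested were above vehicle and 15 below, with a median of -0.08, and none passed. Quantile normalization put 6 above and 11 below with a median of -0.01, and the authors' values 8 above and 9 below. The insulin gene Ins2 stood at -0.18 on the log2 scale, with an SE of 0.10. Pomc, the precursor of the melanocortins, read 2.14, 2.21, 2.24 and 2.18 with MPE and 2.28, 2.33 and 2.24 with vehicle. The gap between the highest MPE and the lowest vehicle array of Pomc was smaller than the spread within either group, and MPE stood at 0.941 times vehicle (0.864 to 1.02, limma adjusted p = 1.0).

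Genes of entry into the endoplasmic reticulum and folding had 6 of 17 above and 11 below, with a median of -0.02, while quantile normalization put 11 above and 6 below. The chaperone Hsp90b1 stood at 0.937 times vehicle (0.857 to 1.02) and the disulfide isomerase P4hb at 0.935 times (0.848 to 1.03). The 13 genes of the proton pump that acidifies granules were split 7 above and 6 below with a median of 0.00, within -0.04 and 0.07, and 1 above and 12 below when arrays were scaled to their median. Its subunit Atp6v1c1 stood at 1.05 times vehicle and Atp6ap2 at 0.975 times. For granule calcium, zinc and sorting, 5 of 12 were above and 7 below, with a median of -0.01. The sorting receptor Sorl1 stood at 0.934 times (0.847 to 1.03), and Arfip1, which binds Arf-family GTPases, at 1.12 times (0.947 to 1.32).

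**Figure D5:**
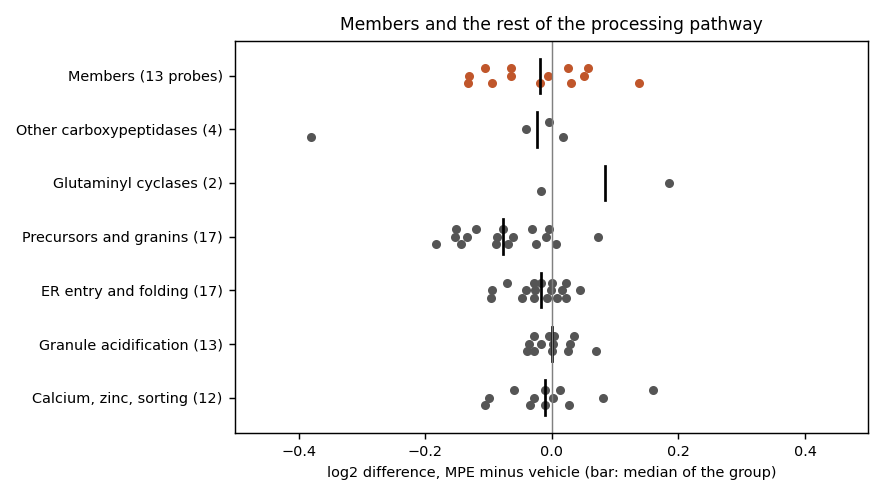
Log2 differences between MPE and vehicle, positive where MPE was higher, for the 13 member probes and for the tested genes of 6 of the other groups of the processing pathway. Points are probes or genes, upright bars are group medians and the numbers in brackets count tested genes; all points but Cpz at -0.38 lie within -0.18 and 0.18.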

How the data were processed

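RNA of MIN6 cells was hybridized to 1-colour Agilent arrays from 100 ng of RNA, per the labels' protocols. The deposited files hold spot intensity from Agilent Feature Extraction (11.5.1.1 per the file headers, 10.5.1.1 per the submitters' processing notes), background-subtracted and detrended within the array, with flags for controls, saturation, outliers and signal well above background, plus a value table of log2 intensities by the authors, made with a tool not named in those notes. That table correlated with log2 intensity at 0.9996 or more on each array. Control spots and 611 outlier spot values were left out, none of a member, and no spot was saturated. Log2 intensity was averaged per probe and reduced by the 75th percentile of the array. The 28943 probes with a flag for signal well above background on 3 or more arrays were fitted in limma 3.58.1 (R 4.3.3) on treatment alone, with Benjamini-Hochberg adjustment at 0.05. Symbols came from RefSeq (GRCm38.p6, names only, since the arrays were designed on another build) for 32994 probes. A gene with several probes counted by its brightest probe in the lists. Members and lists were chosen with earlier results of these data known. Named genes were all members and, per list, the genes with the 2 smallest unadjusted p, of which 1 is not reported here. Alternatives changed the scaling, background correction, filter, probes, variance model, block and arrays used. Normexp used median spot intensity, as the files used here hold no mean. The number of arrays limits the precision.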

Additional observations from a re-analysis of the deposited data

Results flagged for a closer look

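MPE replicate 1 stood apart from the other 3 MPE arrays for the second Pcsk6 probe, at -4.74 on the log2 scale against -6.32 to -6.30. The probe was not well above background on that or any other array, and the brighter Pcsk6 probe did not single out this array (-2.13 there, against -2.40 to -2.02). This was the 1 outlying array among 18 values checked over the MPE arrays, where chance would give about 0.9. The groups of 3 vehicle arrays are too small for this check.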

How the results depend on the processing

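No member probe was called under any of the 20 alternatives run, in either direction, and no limma adjusted p of a member's brightest probe fell below 0.569. Of 200 member values under the alternatives 30 changed sign, and Furin and Pcsk1n kept theirs throughout. With median scaling, which moved the median of all probes to -0.08, the log2 difference of Pcsk1 stood at -0.044, Pcsk4 at -0.019, Pcsk6 at -0.013 and Cpd at -0.039. Quantile normalization gave 0.037 for Scg5 and 0.10 for Cpe, and the authors' values gave 0.037 and 0.10. Pcsk2 was -0.0031 with quantile normalization and -0.0030 with the authors' values. Normexp gave 0.0086 for Pcsk2, 0.023 for Scg5, 0.078 for Cpe and -0.023 for Pcsk6. Array weights gave 0.015 for Scg5 and 0.0015 for Pam, and the mean of both probes -0.051 for Cpd. Same-numbered arrays of both groups deviated together with correlations of 0.24, 0.05 and 0.40, and MPE replicate 2 correlated best with vehicle replicate 1 (0.29), so the numbers were not taken as pairs. Other correlations were negative. MPE replicates 1 and 2 stood at -0.30 and -0.31 with vehicle replicate 3, and MPE replicates 3 and 4 at -0.33 and -0.18 with vehicle replicate 1. Replicates 1 and 2 thus deviated against the later replicates in both groups, which hold them in unequal shares. The source of this pattern was not tested. The replicate block, in which MPE replicate 4 has no partner, gave 0.025 for Scg5, 0.0025 for Cpe, 0.0056 for Pam and -0.0030 for the ratio of Cpe to Pam, and changed no other sign of a member. The slide column as a block gave 0.042 for Pam. Leaving out 1 array gave -0.0070 to 0.060 for Pcsk1, -0.030 to 0.035 for Scg5, -0.065 to 0.016 for Cpe, -0.18 to 0.047 for Pam, -0.0048 to 0.14 for Pcsk4, -0.0078 to 0.13 for Pcsk6, -0.016 to 0.076 for Cpd and -0.045 to 0.13 for Cpe to Pam. Values that kept their sign moved too: Pcsk1n was -0.0057 without MPE replicate 3 and -0.21 without vehicle replicate 3, Furin -0.057 and -0.22, and Pcsk2 -0.041 and -0.18. In the same order, Pcsk1 to Pcsk1n was 0.044 and 0.21, Pcsk2 to Scg5 -0.040 and -0.15, and Pcsk1 to Pcsk2 0.080 and 0.18. With the authors' values and normexp, Pcsk1 to Pcsk1n was 0.11 and 0.050, and Pcsk2 to Scg5 -0.040 and -0.015. Pcsk1 to Pcsk2 was then 0.056 and 0.022, and Cpe to Pam 0.16 and 0.14. The cause of these changes was not tested. No adjusted exact p of a ratio fell below 0.267.

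Of all probes tested 1 was called higher and 2 lower. Normexp called 0 higher and 1 lower, quantile normalization called 1 lower, as did the authors' values, and trended robust variance 3 higher and 1 lower. Array weights called 3 higher, and counting genes by their brightest probe or by the mean of their probes, with fewer features tested, called 0 lower each. The replicate block, the slide column as a block and the filter on all 7 arrays each called 0 and 0. Leaving out 1 array gave 0 to 4 higher and 0 to 2 lower, with 0 and 0 without vehicle replicate 1, 3 higher and 1 lower without MPE replicate 1 or 3, 2 higher without MPE replicate 2, 4 higher without MPE replicate 4 and 1 lower without vehicle replicate 3. Without a filter 11545 were called higher and 404 lower, and 11622 of these 11949 probes were well above background on no array. The number of arrays and their place on 1 slide limit the precision.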
